A study of Mus musculus with 4 samples.

Results

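The genes described here are Ifng, which encodes the cytokine interferon gamma, the chemokine genes Cxcl9, Cxcl10 and Cxcl16, and the chemokine receptor genes Cxcr3 and Cxcr6. They were taken by symbol, as 6 genes of the 21739 gene symbols in the count matrices, and all 6 were listed in each of the 4 libraries. The libraries hold single-cell RNA sequencing data of skin from the wound edge of 6-week-old C57/BL6j mice, excised on day 7 after a full-thickness punch wound. Control mice received PBS around the wound edge (2 libraries), and hucMSC-Exo mice received 100 µg of exosomes from human umbilical cord mesenchymal stem cells at each injection, with 48 h between injections (2 libraries). Wounding, anaesthesia, depilation and injection were common to both groups, so neither group is unwounded skin. The study names 2 mice of each group as the sequenced ones, that is 1 mouse a library, with more cells for each than the deposited matrices hold.

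Interferon gamma is made mainly by activated T cells and NK cells. It signals through a receptor on most cell types, and among the genes induced are the secreted chemokines Cxcl9 and Cxcl10, both ligands of Cxcr3 on type 1 T cells and NK cells. Cxcl16 differs in that it is made as a membrane-bound protein from which a soluble chemokine is shed, and its receptor is Cxcr6, a marker of many tissue-resident lymphocytes. In skin wounds this system is known for bringing T cells and NK cells to macrophages and dendritic cells.

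By GENCODE, Cxcl9 and Cxcl10 are neighbours on the minus strand of mouse chromosome 5 in GRCm38, Cxcl9 at chr5:92321347-92328079 and Cxcl10 at chr5:92346638-92348889, with 18558 bases between them. The other genes lie apart, Ifng at chr10:118441046-118445892, Cxcl16 at chr11:70453983-70459984, Cxcr3 at chrX:101731535-101734269 and Cxcr6 at chr9:123806475-123811760. The 250 bases before the RefSeq start of the neighbouring pair are shown because both ligands share a receptor, while Cxcl10 was read more widely than Cxcl9. Capitals mark matches to 4 searched motifs, on either strand: a gamma-activated site (GAS, TTC and GAA with NNN between them), an interferon-stimulated response element (ISRE, GAAA and GAAA with NN between them), and kappaB sites, GGG and TTCC with NN between them (9 letters) or NNN (10 letters).
Cxcl9, chr5:92328080-92328329, minus strand: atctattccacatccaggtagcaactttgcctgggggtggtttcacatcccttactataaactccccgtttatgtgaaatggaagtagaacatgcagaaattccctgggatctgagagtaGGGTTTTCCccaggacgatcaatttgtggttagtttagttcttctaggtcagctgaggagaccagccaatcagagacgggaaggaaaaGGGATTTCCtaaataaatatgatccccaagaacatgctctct
Cxcl10, chr5:92348890-92349139, minus strand: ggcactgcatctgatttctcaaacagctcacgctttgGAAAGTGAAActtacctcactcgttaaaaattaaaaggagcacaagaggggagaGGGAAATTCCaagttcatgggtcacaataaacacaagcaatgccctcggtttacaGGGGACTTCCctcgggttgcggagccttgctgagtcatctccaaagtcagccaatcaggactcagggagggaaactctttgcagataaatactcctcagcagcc
Both windows held 2 kappaB matches, and that of Cxcl10 also held an ISRE match. In Cxcl9 the kappaB matches lay 130 to 122 and 42 to 34 bases before the start. In Cxcl10 the ISRE match lay 213 to 204 bases before the start and the 10-letter kappaB matches 159 to 150 and 104 to 95, the second of which contains a 9-letter match at 103 to 95. Of 32841 RefSeq promoters of this length, 2.98% held the ISRE letters, 4.98% the 9-letter and 4.65% the 10-letter kappaB letters, and 7.02% the GAS letters. Neither window held the GAS letters, and the window before Ifng at chr10:118440796-118441045 held them once, 249 to 241 bases before the start. The windows of Cxcr3 and Cxcr6 held no match to the 4 motifs. A match describes letters in the sequence, and binding was not measured.

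After filtering, 6443 of 7178 cells were kept, between 952 and 2074 a library, with 4779405 to 11243740 UMIs a library. A UMI (unique molecular identifier) counts 1 captured RNA molecule, and a level in CPM (counts per 1e6) is the number of UMIs of a gene in a population of 1 library, divided by all UMIs of that population and scaled to 1e6. The cells fell into 21 populations, clustered without the 6 genes or the gene lists used below, and 3 of the populations (529 cells) stayed unnamed and are called by their leading genes. Control 1 stood apart in make-up: macrophages were 16.8% of its cells against 6.12% in Control 2, 3.46% in hucMSC-Exo 1 and 5.50% in hucMSC-Exo 2. Keratinocytes (23 cells) and fibroblasts (25 cells) were nearly absent, while dendritic epidermal T cells, resident in mouse epidermis, numbered 1018. The libraries shared 6 cell barcodes between them. Gut sections stand in the tissue label, whereas skin is given as the cell type and in the protocol.

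The titles and the names of the deposited matrices disagree on the groups. The matrices of Control 1 and hucMSC-Exo 1 were named with the letter c and those of Control 2 and hucMSC-Exo 2 with the letter t. Neutrophils numbered 56 in Control 1, 347 in Control 2, 92 in hucMSC-Exo 1 and 542 in hucMSC-Exo 2, so that both matrices named c held few and both named t many. The neutrophil numbers stated for the groups by the study lie nearer to the sums by letter than to those by title. Groups follow the titles, and which sorting is right was not settled. Every difference between groups below is between libraries titled Control and libraries titled hucMSC-Exo, holds for that sorting alone and was not tested under the other, while the values by library and the levels by population do not depend on it.

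Ifng was read in few cells, and the lymphoid cells (T cells, NK cells and innate lymphoid cells) held 98.9% of its 557 UMIs. A cluster led by Gzmc, Cd160 and Xcl1, genes of cytotoxic and innate-like lymphocytes, held 30.5% of them, CD4 T cells 27.6%, NK cells 20.6%, and CD8 or NKT-like T cells 8.98%. No Ifng UMI was read in 1037 neutrophils, which allows a share of up to 0.289% at a median depth of 2069 UMIs, or in 207 group 2 innate lymphoid cells, and 4 were read in 1018 dendritic epidermal T cells, the resident gamma delta T cells of mouse epidermis. Ifng was therefore read mostly in 4 lymphocyte populations, and the epidermal T cells, the largest lymphoid population, gave almost none.

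**Figure D1:**
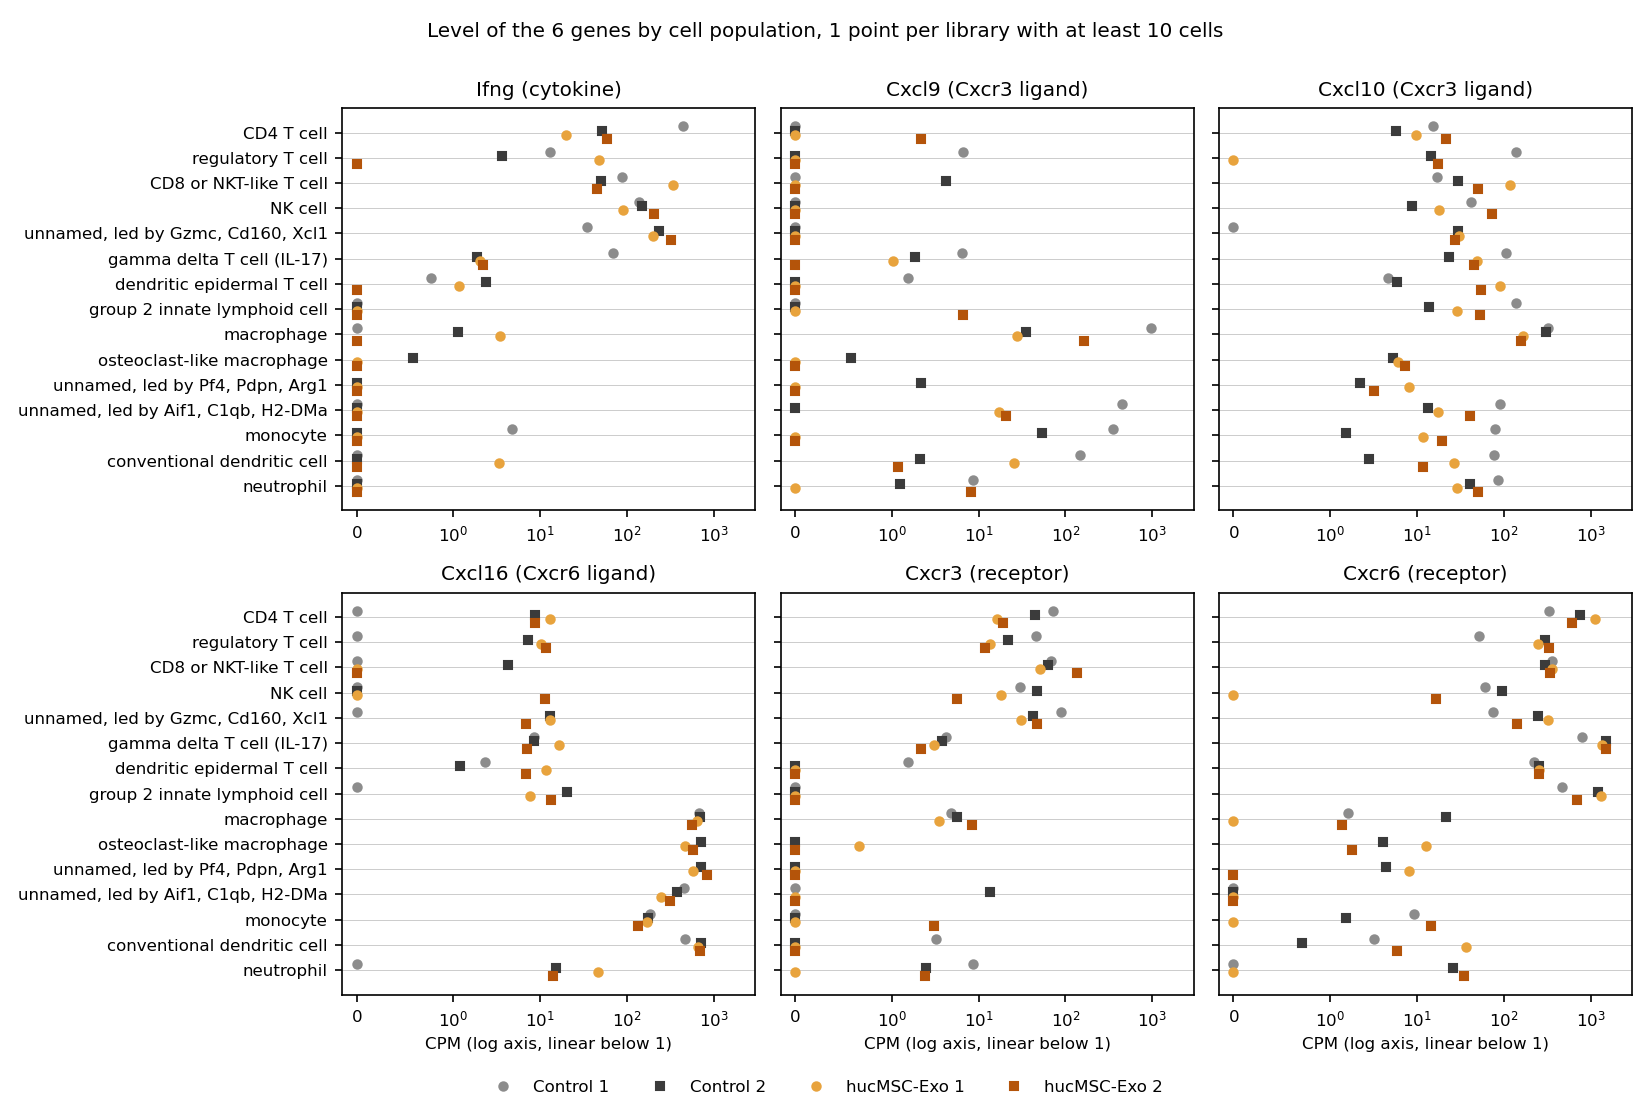
Level of the 6 genes in 15 cell populations; each point is 1 library with at least 10 cells of the population, on a CPM axis that is logarithmic above 1 and linear below. Ifng and Cxcr3 points lie with T cells and NK cells, Cxcl16 points with monocytes, macrophages and dendritic cells, and the highest Cxcl9 point is Control 1 macrophages at 970.0 CPM.

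The mean Ifng level over the 4 libraries was 197 ± 120 CPM (SD) in the Gzmc-led cluster, 145 ± 46.0 in NK cells, 142 ± 200 in CD4 T cells and 131 ± 141 in CD8 or NKT-like T cells. The ranges over libraries of these 4 populations overlapped one another, so their order is not fixed by these data. Of their cells, 27.4%, 29.0%, 13.4% and 21.5% held an Ifng UMI, at median depths of 5501.5, 4098.75, 4304.25 and 3817.5 UMIs. Below them came gamma delta T cells of the IL-17 kind (18.6 ± 33.1 CPM), where 24 of 40 UMIs came from 1 cell, and regulatory T cells (16.1 ± 21.7 CPM).

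The source of Ifng differed from library to library. In CD4 T cells the level was 441 CPM in Control 1, 50.9 in Control 2, 19.6 in hucMSC-Exo 1 and 58.1 in hucMSC-Exo 2. Control 1 stood alone on the high side and the other Control library lay between the hucMSC-Exo libraries, so the groups overlapped. The share of CD4 T cells with a UMI ran the same way, at 45.2% in Control 1 against 12.3%, 4.55% and 9.18% in the others. By edgeR's quasi-likelihood test the difference in CD4 T cells was -2.49 on the log2 scale (hucMSC-Exo minus Control, SE 0.93, adjusted p = 0.999). Without Control 1 it was -0.29, and it passed the threshold without Control 2 (-3.46, adjusted p = 8.48e-05) or without hucMSC-Exo 2 (-3.61, adjusted p = 5.66e-05), with 1 library left in that group.

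The cytotoxic sources did not follow the CD4 T cells. In the Gzmc-led cluster Ifng stood at 34.4 CPM in Control 1, 236 in Control 2, 200 in hucMSC-Exo 1 and 319 in hucMSC-Exo 2, so that Control 1, highest in CD4 T cells, was here the lowest. NK cells gave 139, 149, 89.9 and 202 CPM in the same order, with both hucMSC-Exo libraries outside the Control range on opposite sides. CD8 or NKT-like T cells gave 86.4, 50.8, 341 and 45.4 CPM, the high value coming from 15 cells of hucMSC-Exo 1. The log2 differences were +0.80 (SE 0.68), +0.18 (SE 0.42) and +1.15 in turn, and 0% of the genes tested in NK cells and in the Gzmc-led cluster passed the test. With each library left out the Gzmc-led cluster ranged from +0.11 to +2.85, the latter without Control 2 (adjusted p = 0.000455). Without hucMSC-Exo 2 NK cells gave -0.72 and CD8 or NKT-like T cells +2.28 (adjusted p = 0.0147), and without hucMSC-Exo 1 the latter gave -0.50.

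**Figure D2:**
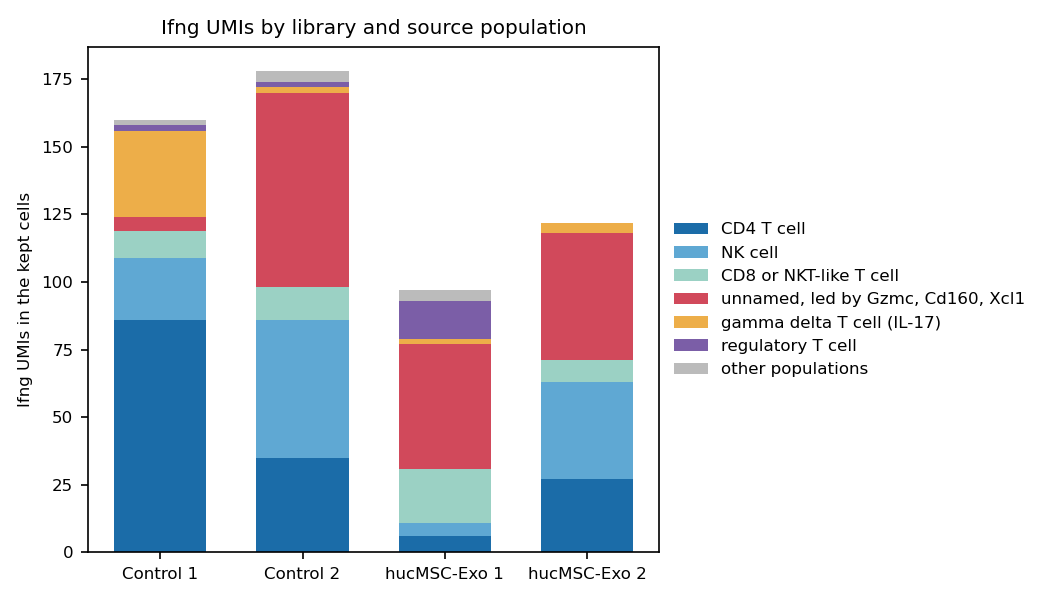
Ifng UMIs in each library (vertical axis), stacked by the population that held them. CD4 T cells hold 86 of the 160 UMIs of Control 1, whereas the Gzmc-led cluster holds 72 of the 178 UMIs of Control 2.

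Over all lymphoid cells Ifng stood at 59.9 CPM in Control 1 and 42.2 in Control 2, against 28.4 in hucMSC-Exo 1 and 30.4 in hucMSC-Exo 2. Both hucMSC-Exo libraries were below both Control libraries, as were 22.6% of the 10399 genes tested in lymphoid cells. The log2 difference was -0.68 (SE 0.21, adjusted p = 0.998), and it lay between -0.84 and -0.50 when each library was left out. The share of lymphoid cells with an Ifng UMI was 7.45%, 7.54%, 3.38% and 4.91% in the same order, a mean difference of -3.35 percentage points (exact two-sided permutation p = 0.333, the smallest that 2 libraries against 2 allow). With each cell thinned to 1000 UMIs the shares were 3.50%, 2.74%, 1.65% and 1.53%.

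Genes known to prepare lymphocytes for Ifng expression, such as the IL-12 and IL-18 receptor genes and the transcription factors Stat4, Tbx21, Eomes and Runx3, gave differences on both sides of 0. Of 14 listed genes 9 were tested in lymphoid cells, 6 with a log2 difference below 0 and 3 above, and 0 passed the test. Their median was -0.08, beside -0.01 over all genes. In 4 of the 9 both hucMSC-Exo libraries were below both Control libraries, and in 0 above. Over all genes tested in lymphoid cells these shares were 22.6% and 9.43%. Il12rb2, the signalling chain of the IL-12 receptor, read 155 and 81.7 CPM in the Control libraries against 79.5 and 62.2 in those of hucMSC-Exo, with both hucMSC-Exo libraries below both Control libraries. Il18r1, the IL-18 receptor chain, read 128, 183, 195 and 103 CPM, and Stat4, the IL-12 signal transducer, 59.9, 150, 110 and 101, so the groups overlapped for both. Runx3, a transcription factor of cytotoxic T cells and the most abundant of the list, read 432, 354, 346 and 346 CPM.

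Lymphoid cells with an Ifng UMI held Cxcr3 more often than those without. Of 180 such cells, 17.2% held a Cxcr3 UMI, against 4.18% of the 2987 lymphoid cells without Ifng. The transcription factors Tbx21 (32.2% against 3.72%) and Eomes (20.6% against 3.28%) and the chemokine Ccl5 (55.0% against 11.2%) went the same way, while Cxcr6 (45.0% against 63.4%) went the other way. Ifng-positive cells were only slightly deeper (median 4209.5 against 3961 UMIs), and after thinning, Cxcr3 was read in 4.23% of 71 Ifng-positive cells and in 1.21% of the rest.

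Part of this contrast lay between populations, and within CD4 T cells it had the same direction. There Cxcr3 was read in 22.0% of 50 Ifng-positive cells against 9.88% of the others, Tbx21 in 26.0% against 5.56%, and Cxcr6 in 62.0% against 79.3%. These shares pool the cells of 4 libraries, as a description with no test. Of the 50 Ifng-positive CD4 T cells 19 came from Control 1, which gave 42 of the 374 CD4 T cells. In Control 1 26.2% of CD4 T cells held Cxcr3, against 12.3%, 5.68% and 9.18% in Control 2, hucMSC-Exo 1 and hucMSC-Exo 2. For Cxcr6 the shares were 54.8% against 79.5%, 83.0% and 77.6%. The part of this mix of libraries in the contrast within CD4 T cells was not tested.

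Pooled over the libraries, Cxcl9 was read mostly in macrophages, and most of it came from 1 library. Macrophages held 85.2% of its 1595 UMIs, with 1201 of their 1359 UMIs from Control 1. Monocytes came next with 111 UMIs, conventional dendritic cells with 65 and a shallow unnamed cluster led by Aif1, C1qb and H2-DMa with 27, whereas lymphoid cells, with a UMI in 0.347% of cells, gave 12. In Control 2 macrophages held 31 UMIs and monocytes 35. In hucMSC-Exo 1 macrophages held 8 of the 23 UMIs of monocytes, macrophages and dendritic cells. The range of macrophage levels over libraries overlapped that of the next population. The expression was uneven within the macrophages as well: 35 cells with at least 10 UMIs held 84.0% of all Cxcl9 UMIs, and 30 of the 35 were macrophages.

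In macrophages Cxcl9 stood at 970.0 CPM in Control 1, 35.1 in Control 2, 27.9 in hucMSC-Exo 1 and 165 in hucMSC-Exo 2. Control 1 exceeded every other library, and Control 2 lay between the hucMSC-Exo libraries. A UMI was read in 33.8%, 5.51%, 8.16% and 10.9% of the macrophages in turn, and 25, 1, 0 and 4 cells held at least 10. In Control 1 the highest cell held 146 of 1201 UMIs, so its level did not rest on a single cell.

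The log2 difference in macrophages was -2.32 (SE 1.08, adjusted p = 0.807). Without Control 1 it was +1.65, and without Control 2 it was -3.23 (adjusted p = 9.38e-05). Over monocytes, macrophages and dendritic cells together the levels were 695, 12.3, 8.39 and 33.5 CPM, the log2 difference -4.00 (SE 1.56, adjusted p = 1.000), +0.83 without Control 1 and -4.96 without Control 2 (adjusted p = 0.0112). The direction for Cxcl9 therefore depended on Control 1, the library with the most macrophages. The part of the macrophage share in the difference over the whole class was not tested.

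Among monocytes Cxcl9 was read in the Control libraries and listed at 0 in both hucMSC-Exo libraries. It passed the filter on low counts through the Control libraries alone. Control 1 held 76 UMIs (357 CPM) and Control 2 held 35 (53.8 CPM), and 18.9% of 4508 genes tested in monocytes had both hucMSC-Exo libraries below both Control libraries. Against a limit of 3 UMIs over the 190 hucMSC-Exo monocytes the level was at least 49.0-fold lower than the 129 CPM of all Control monocytes, and by edgeR the difference did not pass the test (adjusted p = 0.999). This rested on few cells, since 75 of the 76 UMIs of Control 1 and 17 of the 35 of Control 2 were each in 1 cell, and without the highest cell of each library it was at least 8.38-fold lower.

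**Figure D3:**
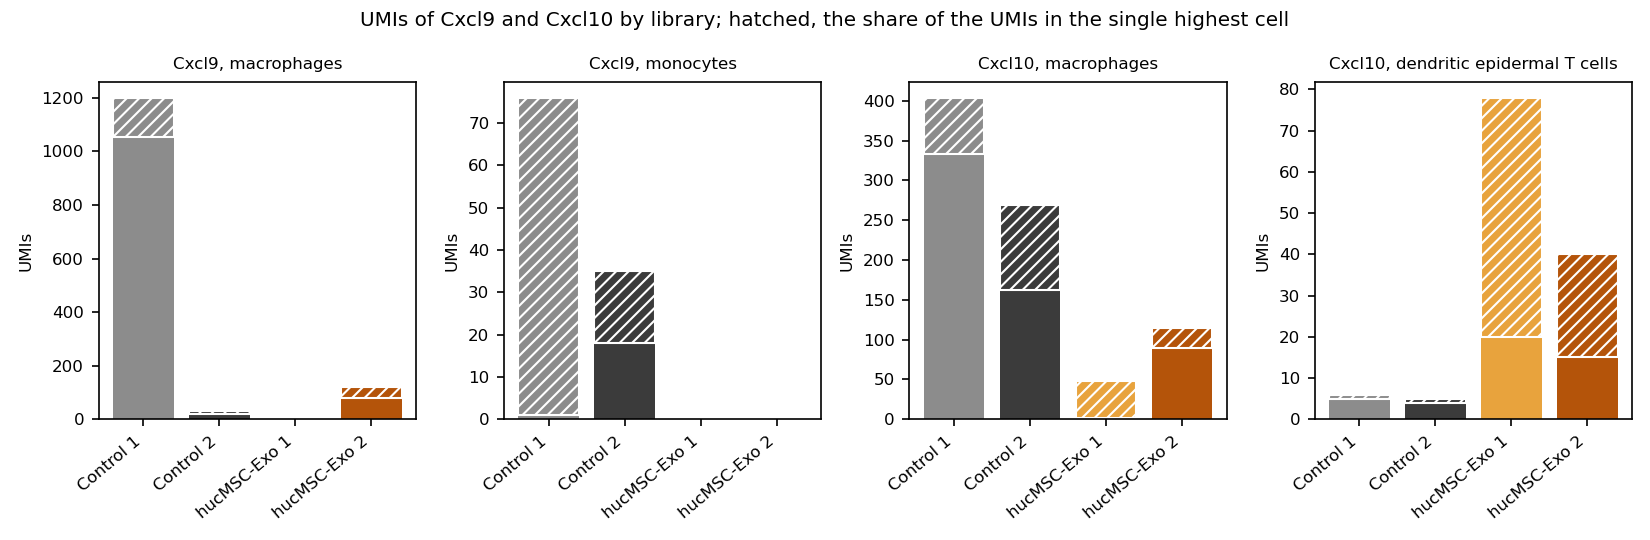
UMIs of Cxcl9 and Cxcl10 in each library (vertical axis, a separate scale in each panel) in the populations named above each panel; the hatched part of a bar is the single cell with the most UMIs. In dendritic epidermal T cells 58 of 78 Cxcl10 UMIs of hucMSC-Exo 1 and 25 of 40 of hucMSC-Exo 2 are in 1 cell each.

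Cxcl10 had a wider distribution. Macrophages held 49.3% of its 1693 UMIs, lymphoid cells 29.5% and neutrophils 6.50%, and among populations with at least 10 cells in 2 or more libraries macrophages were highest, at 239 ± 88.6 CPM (SD, 4 libraries) with no overlap of the library range with the next. Without the highest macrophage of each library the level was 7.10 CPM in hucMSC-Exo 1 and 126 in hucMSC-Exo 2. Both lay under the highest library of the next population (138 CPM, its own highest cells left in). In hucMSC-Exo 1 macrophages held 48 Cxcl10 UMIs and lymphoid cells 159. With all deposited cells the macrophage mean was 109 ± 84.5 CPM. From group 2 innate lymphoid cells (58.3 ± 55.3 CPM) downward the ranges of neighbouring populations overlapped. Again few cells held most of the RNA, as 37 cells with at least 10 UMIs held 61.0% of it. Among populations with at least 10 cells in 3 or more libraries, the lowest share of cells with a UMI was 2.05%, in the cluster led by Pf4, Pdpn and Arg1 at a median depth of 7503 UMIs.

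In macrophages Cxcl10 stood at 326 CPM in Control 1 and 305 in Control 2, against 167 in hucMSC-Exo 1 and 158 in hucMSC-Exo 2. The groups did not overlap, as for 16.3% of the 6595 genes tested in macrophages in that direction. The share of macrophages with a UMI was 25.0%, 19.7%, 6.12% and 20.0%, so the shares overlapped. The log2 difference was -0.98 (SE 0.25, adjusted p = 0.588), and it stayed between -1.07 and -0.89 when each library was left out. In hucMSC-Exo 1, 46 of the 48 UMIs were in 1 of 49 macrophages, and without the highest cell of each library the levels were 271, 185, 7.10 and 126 CPM and the log2 difference -1.57 (adjusted p = 0.768).

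The macrophages were not alike in the 4 libraries. A cluster among them whose leading genes were Cxcl9, Cxcl10 and Rsad2 took in 111 of the 160 macrophages of Control 1, 47 of 127 in Control 2, 19 of 49 in hucMSC-Exo 1 and 38 of 110 in hucMSC-Exo 2. Within this cluster Cxcl10 stood at 409, 686, 412 and 223 CPM in turn, where the groups overlapped. In hucMSC-Exo 1, 46 of the 47 Cxcl10 UMIs of this cluster were in 1 cell, and the overlap rested on that cell. The part of this make-up in the difference over all macrophages was not tested.

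In the whole class of monocytes, macrophages and dendritic cells Cxcl10 stood at 234, 48.8, 28.8 and 41.9 CPM. Both hucMSC-Exo libraries were below both Control libraries, as were 16.3% of the 9322 genes tested in the class. The log2 difference was -1.91 (SE 0.66, adjusted p = 1.000), and it ranged from -0.41 without Control 1 to -2.64 without Control 2 (adjusted p = 0.0112). Without the highest cell of each library the levels were 197, 30.6, 12.1 and 35.3 CPM, and the groups overlapped. The share of cells with a UMI was 20.4%, 5.35%, 6.22% and 7.50% in turn, so without Control 1 the mean share was 1.51 percentage points higher in hucMSC-Exo. In neutrophils, whose interferon-responding cells are known to express Cxcl10, the levels were 85.7, 41.3, 29.3 and 50.6 CPM, with overlapping groups and a log2 difference of -0.22 (SE 0.50, adjusted p = 1.000).

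The one call among the 6 genes was Cxcl10 in dendritic epidermal T cells. Its level was 4.60 CPM in Control 1 and 5.97 in Control 2, against 90.0 in hucMSC-Exo 1 and 55.3 in hucMSC-Exo 2, and a UMI was read in 1.81%, 2.40%, 6.44% and 5.14% of the cells. Both hucMSC-Exo libraries were above both Control libraries in level and in share, as were 12.4% of the 7124 genes tested there in level. By edgeR Cxcl10 was higher in the libraries titled hucMSC-Exo by 3.85 on the log2 scale (SE 0.41, adjusted p = 0.000240). It was the only gene called in this population (0.014% of the genes tested). Cxcl10 passed the filter on low counts only through the hucMSC-Exo libraries, as the Control libraries held 6 and 5 UMIs. The 2 matrices named c (4.60 and 90.0 CPM) and the 2 named t (5.97 and 55.3 CPM) each held 1 low and 1 high library. By DESeq2 the difference was +3.90 (adjusted p = 7.35e-05).

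This call rested on 2 cells. One cell of hucMSC-Exo 1 held 58 of its 78 UMIs and one of hucMSC-Exo 2 held 25 of its 40, while no Control cell of this population held more than 1. Without the highest cell of each library the levels were 3.86 and 4.79 CPM in the Control libraries and 23.2 and 20.9 in the hucMSC-Exo libraries, and the log2 difference of +2.40 missed the threshold (adjusted p = 0.314). The 58-UMI cell had 3048 UMIs in all, 77 of them from the markers of dendritic epidermal T cells, 1 from those of macrophages and 28 from type I interferon-stimulated genes. The 25-UMI cell had 6188 UMIs, 87 from markers of dendritic epidermal T cells and 0 from those of macrophages, and its doublet score was among the top 10% of its library. With those top scores left out, the log2 difference was +3.64 (adjusted p = 0.200). In thinned dendritic epidermal T cells the shares were 0.606%, 0.481%, 1.14% and 1.90%.

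Cxcl10 over all lymphoid cells stood at 39.2, 15.1, 48.1 and 43.1 CPM, with both hucMSC-Exo libraries above both Control libraries, as for 9.43% of the genes tested, and a log2 difference of +0.90 (SE 0.37, adjusted p = 0.998). A single fibroblast of hucMSC-Exo 2 held all 43 Cxcl10 UMIs of the fibroblasts, and a single keratinocyte of that library held 52 of 58. These populations had at most 10 cells a library and were not tested.

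Cxcl16 was expressed broadly by the cells that take up or present antigen. Monocytes, macrophages and dendritic cells held 96.8% of its 8271 UMIs. The mean was 1122 CPM in mature dendritic cells (2 libraries), 707 in the unnamed cluster led by Pf4, Pdpn and Arg1 (3 libraries), 644 ± 57.6 in macrophages, 632 ± 116 in conventional dendritic cells and 582 in osteoclast-like macrophages (3 libraries). Mature dendritic cells did not overlap with the next population, the following 4 overlapped among neighbours, and the cluster led by Aif1, C1qb and H2-DMa (346 ± 90.2) and monocytes (165 ± 21.2) stood apart below them. No Cxcl16 UMI was read in 43 plasmacytoid dendritic cells, which allows a share of up to 6.98%, and 1.57% of dendritic epidermal T cells held one.

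Between the groups the differences in Cxcl16 were small beside their errors. Macrophages gave 677 and 691 CPM in the Control libraries against 645 and 562 in the hucMSC-Exo libraries, with 86.3%, 85.8%, 85.7% and 76.4% of cells holding a UMI. The hucMSC-Exo values were the lower ones without overlap, as for 16.3% of the genes tested in macrophages. The log2 difference was -0.20 (SE 0.22, adjusted p = 0.991). Over the class the levels were 565, 644, 501 and 496 CPM and the log2 difference -0.21 (SE 0.22, adjusted p = 1.000). The share with a UMI was 78.3%, 76.5%, 74.6% and 61.9% (difference -9.17 percentage points, exact two-sided permutation p = 0.333), and 35.7%, 42.6%, 33.9% and 30.8% in thinned cells.

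**Figure D4:**
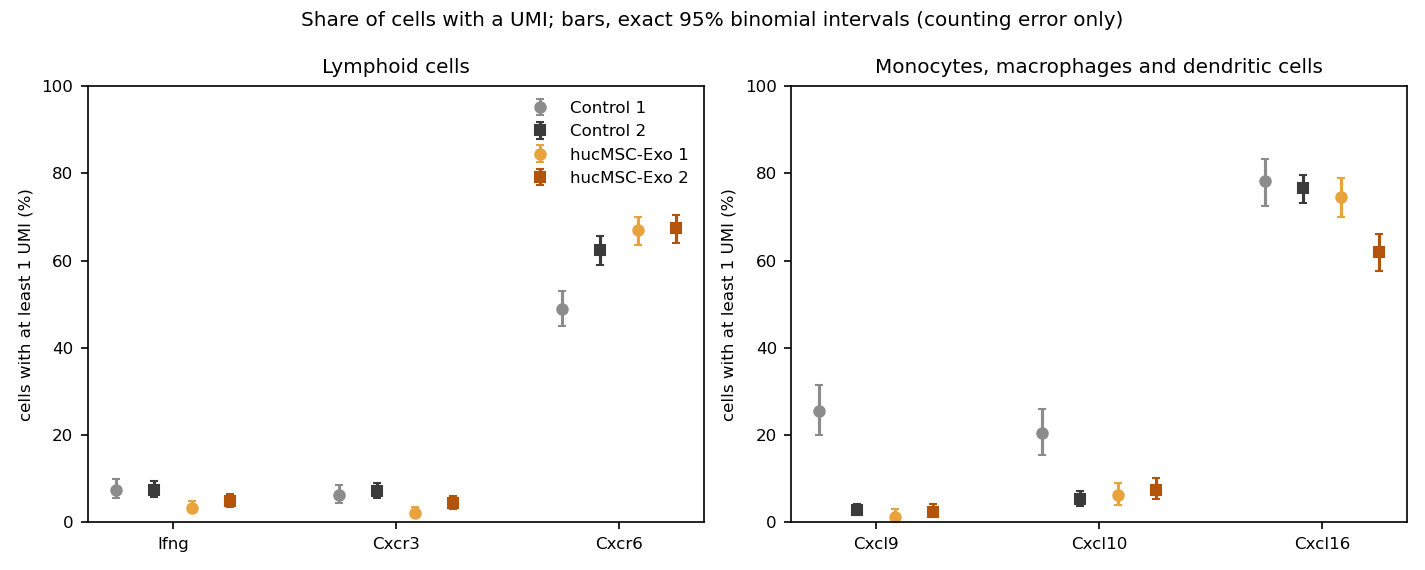
Share of cells with at least 1 UMI (vertical axis, percent) in lymphoid cells and in monocytes, macrophages and dendritic cells; points are libraries and bars are exact 95% binomial intervals, which cover counting error only. Cxcl16 lies between 61.9% and 78.3% and Cxcr6 between 49.0% and 67.4%, whereas Ifng and Cxcr3 lie at or below 7.54% in every library.

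Cxcr3, the receptor of Cxcl9 and Cxcl10, was sparse, and lymphoid cells held 86.3% of its 248 UMIs. CD8 or NKT-like T cells led at 80.0 ± 38.2 CPM, followed by the Gzmc-led cluster (52.5 ± 25.6), CD4 T cells (38.1 ± 25.9), NK cells (25.1 ± 17.6) and regulatory T cells (23.3 ± 15.7). Each of these populations overlapped with its neighbour in the order. A UMI was read in 27.4% of CD8 or NKT-like T cells, against 0.579% of neutrophils, at median depths of 3817.5 and 2069 UMIs. Group 2 innate lymphoid cells gave 0 of 207, which allows a share of up to 1.45%.

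Over lymphoid cells Cxcr3 stood at 19.2 and 21.8 CPM in the Control libraries and at 6.96 and 12.2 in the hucMSC-Exo libraries, and 6.29%, 7.18%, 2.21% and 4.44% of cells held a UMI. The hucMSC-Exo libraries were lower without overlap, as they were for Ifng and for 22.6% of the genes tested in lymphoid cells. The log2 difference was -0.998 (SE 0.33, adjusted p = 0.998), from -1.48 to -0.65 with each library left out, and the difference in share was -3.41 percentage points (exact two-sided permutation p = 0.333). In CD4 T cells Cxcr3 read 71.8, 45.1, 16.3 and 19.4 CPM, again without overlap, as for 14.3% of 4222 genes, with a log2 difference of -1.60 (SE 0.50, adjusted p = 0.999). CD8 or NKT-like T cells gave 69.1, 63.5, 51.2 and 136 CPM, where the groups overlapped.

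Cxcr6, the receptor of Cxcl16, was read in 62.4% of lymphoid cells. Gamma delta T cells of the IL-17 kind held 59.1% of its 10259 UMIs, and 90.2% of these cells held at least 1. They led at 1293 ± 331 CPM, before group 2 innate lymphoid cells (933 ± 416), CD4 T cells (706 ± 337), CD8 or NKT-like T cells (339 ± 30.4) and dendritic epidermal T cells (249 ± 15.9). Only between CD8 or NKT-like T cells and dendritic epidermal T cells did neighbours in this order not overlap. NK cells were low at 43.4 ± 43.5 CPM, and 1.12% of macrophages held a UMI at a median depth of 6983.25.

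In lymphoid cells Cxcr6 went the other way from Ifng and Cxcr3. The levels were 323 and 686 CPM in the Control libraries and 837 and 874 in the hucMSC-Exo libraries, and 49.0%, 62.3%, 66.9% and 67.4% of cells held a UMI. Both hucMSC-Exo libraries were above both Control libraries, as for 9.43% of the genes tested in lymphoid cells. The log2 difference was +0.83 (SE 0.39, adjusted p = 0.998). It ranged from +0.33 without Control 1 to +1.59 without Control 2, where it passed the threshold (adjusted p = 0.00899). The difference in share was +11.5 percentage points (exact two-sided permutation p = 0.333), and also +11.5 in thinned cells.

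In the largest lymphoid populations Cxcr6 differed less than over the class, but not in NK cells. Dendritic epidermal T cells gave 225, 257, 257 and 256 CPM and gamma delta T cells of the IL-17 kind 805, 1505, 1368 and 1493, so the groups overlapped in both, with log2 differences of +0.14 (SE 0.21) and +0.33 (SE 0.27). Dendritic epidermal T cells, low in Cxcr6, made up 332 of the 604 lymphoid cells of Control 1 and 208 of 849 in Control 2. In hucMSC-Exo 1 they were 264 of 859 and in hucMSC-Exo 2 214 of 855. Gamma delta T cells of the IL-17 kind, highest in Cxcr6, numbered 88, 192, 226 and 332 in the same order. They were a larger part of the lymphoid cells in both hucMSC-Exo libraries than in both Control libraries. The part of this make-up in the difference over the class was not tested. In CD4 T cells Cxcr6 read 328, 756, 1135 and 604 CPM (log2 difference +0.63, SE 0.39, adjusted p = 0.999). NK cells gave 60.3, 96.4, 0 and 16.8 CPM, both hucMSC-Exo libraries being below both Control libraries, as for 16.2% of 2244 genes, but these were 46 UMIs in all.

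The filter on low counts left 5 of the 6 genes to test in lymphoid cells and 4 in monocytes, macrophages and dendritic cells. It left 2 in neutrophils and 6 over all kept cells. None of those tested passed in lymphoid cells (0% of 10399 genes by edgeR, 2.89% at an unadjusted p under 0.05), in monocytes, macrophages and dendritic cells (0% of 9322, 1.01% under 0.05), in neutrophils (0% of 3913, 1.2% under 0.05) or over all kept cells (0% of 12117, 1.5% under 0.05). DESeq2 also called 0 genes in each of these 4. Over 12 single populations 3 genes were called, and besides Cxcl10 these were Cd74 and Tyrobp, both higher in hucMSC-Exo CD8 or NKT-like T cells (0.104% of 1930 genes) and both known from antigen-presenting or myeloid cells. Of 25 tests of the 6 genes in single populations, 1 passed and 6 had an unadjusted p under 0.05, against 3.20% of all 48372 gene tests.

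The receptor and signalling genes of interferon gamma were read in the ligand-making cells of every library. In monocytes, macrophages and dendritic cells all 10 listed genes were tested, 7 with a log2 difference below 0 and 3 above, with a median of -0.16 beside 0.00 over all genes and 0 called. Ifngr1, the ligand-binding receptor chain, read 212 and 235 CPM in the Control libraries and 172 and 303 in the hucMSC-Exo libraries. Ifngr2, the second chain, read 112, 127, 89.3 and 127 CPM, and for both chains the groups overlapped. Jak1, the kinase bound to the receptor, read 135, 146, 147 and 175 CPM, with both hucMSC-Exo libraries above both Control libraries, as for 8.18% of the genes tested. In macrophages Socs3, a feedback inhibitor of cytokine signalling, read 363 and 304 CPM against 220 and 215. The groups did not overlap, as for 16.3% of the genes tested there in that direction. The log2 difference was -0.64 (SE 0.25, adjusted p = 0.745).

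Genes induced by interferon gamma lay mostly below 0 as a list, although none of them passed the test alone. Of 24 listed genes 20 were tested in macrophages, where 19 had a log2 difference below 0, with a median of -0.61 beside -0.00141 over all 6595 genes, 0 called and 7 at an unadjusted p under 0.05, as for 6.05% of all genes. Their summed level was 2699 and 1935 CPM in the Control libraries and 1298 and 1740 in the hucMSC-Exo libraries. In 10 of the 20 both hucMSC-Exo libraries were below both Control libraries and in 1 above, against 16.3% and 17.5% of all genes tested. The median was -0.41 without Control 1, with 13 of 19 genes below 0, and between -1.02 and -0.45 without any of the others.

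The named genes of this list did not all behave alike. Cd274, which encodes the checkpoint ligand PD-L1, read 170 and 152 CPM in Control macrophages and 55.8 and 75.0 in hucMSC-Exo macrophages (log2 difference -1.28, SE 0.28, adjusted p = 0.432), with 47.5%, 47.2%, 18.4% and 26.4% of the cells holding a UMI. Over the whole class it read 169, 249, 204 and 201 CPM, so that this difference was not seen there (+0.02). Tapbp, a chaperone of antigen loading, read 291 and 271 CPM against 143 and 222 in macrophages (log2 difference -0.62, SE 0.27, adjusted p = 0.804). Psmb8, an immunoproteasome subunit (408, 227, 262 and 261 CPM), and Irf8, a transcription factor of monocytes and dendritic cells (231, 309, 167 and 257 CPM), overlapped between the groups.

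In the class of monocytes, macrophages and dendritic cells 20 of 21 tested genes of the list had a log2 difference below 0, with a median of -1.27 beside 0.00 over all genes and 0 called. Without Control 1 the median was -0.30 with 18 of 21 below 0, and without hucMSC-Exo 1 it was -0.75. In lymphoid cells 15 of 15 were below 0 (median -0.34, and -0.11 with 9 of 16 without Control 2) and in neutrophils 9 of 10 (median -0.53), but without Control 1 the neutrophil median was +0.09. In dendritic epidermal T cells, where Cxcl10 was called, 3 of 9 tested genes were below 0 and the median was +0.07. Macrophages were 160 of the 240 monocytes, macrophages and dendritic cells of Control 1. They were 127 of 729 in Control 2, 49 of 386 in hucMSC-Exo 1 and 110 of 520 in hucMSC-Exo 2. The part of this make-up in the class differences of this list, of Cxcl10 and of the type I genes below was not tested.

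Type I interferon-stimulated genes, many of which interferon gamma also induces, gave values mostly on the same side. In macrophages 10 of 14 had a log2 difference below 0 (median -0.35, 0 called). Isg15, a ubiquitin-like antiviral protein, read 213 and 121 CPM in the Control libraries and 31.4 and 54.2 in the hucMSC-Exo libraries (log2 difference -1.92, SE 0.38, adjusted p = 0.369). Rsad2, the antiviral enzyme viperin, read 370, 527, 171 and 258 CPM (-1.05, SE 0.28, adjusted p = 0.649). Both were lower in hucMSC-Exo without overlap, as were 16.3% of the genes tested in macrophages. Irf7, a transcription factor of the type I response (354, 304, 234 and 354 CPM), and Oasl2, an oligoadenylate synthetase-like protein (116, 101, 62.8 and 122 CPM) overlapped. In the class 14 of 14 were below 0 (median -0.99), but 7 of 14 without Control 1 (median -0.03). In lymphoid cells 8 of 8 were below 0 (median -0.66), with medians from -1.47 to -0.34 when each library was left out.

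**Figure D5:**
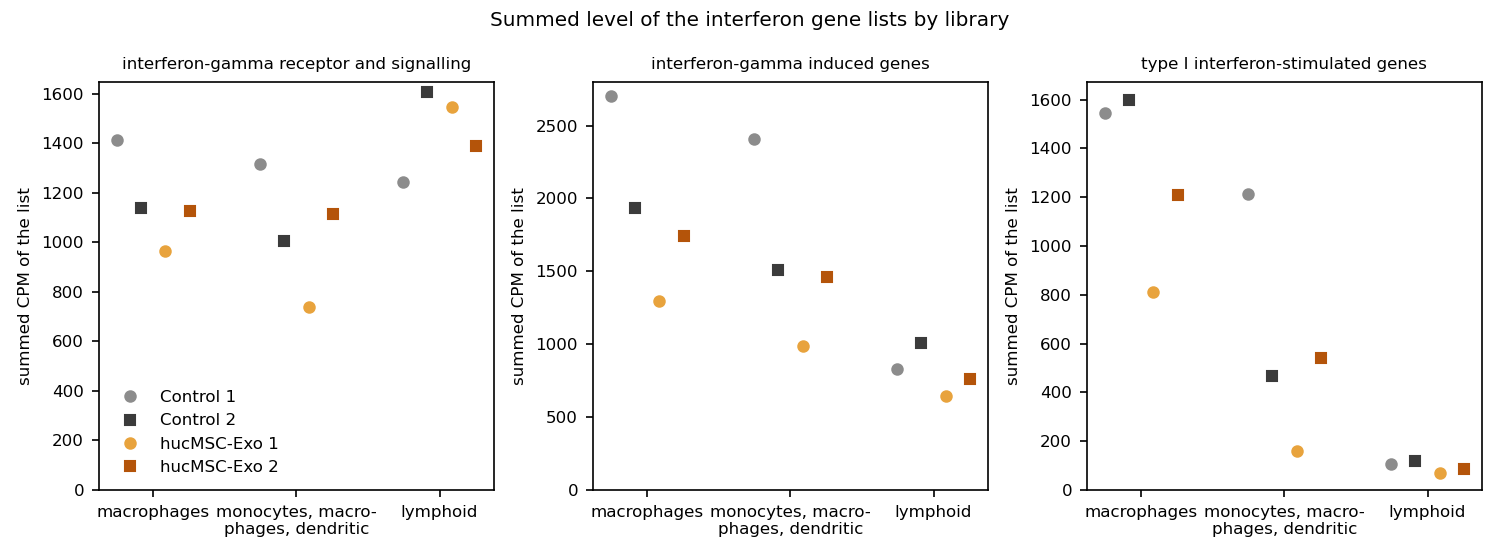
Summed CPM of 3 gene lists (vertical axis) in macrophages, in all monocytes, macrophages and dendritic cells, and in lymphoid cells; each point is a library. In macrophages the interferon-gamma induced list sums to 2699 and 1935 CPM in the Control libraries and to 1298 and 1740 in the hucMSC-Exo libraries.

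Cells with Cxcl9 also held other interferon-induced genes more often. Of 99 Cxcl9-positive monocytes, macrophages and dendritic cells, 61 came from Control 1, 20 from Control 2, 5 from hucMSC-Exo 1 and 13 from hucMSC-Exo 2. Gbp2, an interferon-induced GTPase, was read in 60.6% of them against 9.97% of the cells without Cxcl9, Irf1 in 52.5% against 16.6% and Cxcl10 in 28.3% against 6.93%. Cd274 was read in 50.5% against 56.9%. Of the 99 cells 77 were macrophages, and the part of cell type in the contrast for Cd274 was not tested.

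The contrast for Gbp2 held in each library, at 65.6% against 23.5% in Control 1, 60.0% against 10.6% in Control 2, 40.0% against 2.62% in hucMSC-Exo 1 and 46.2% against 9.86% in hucMSC-Exo 2. In thinned cells Gbp2 was read in 31.0% of 58 Cxcl9-positive cells against 3.52%, and Cxcl10 in 19.0% against 2.35%. Cxcl16 was read in 83.8% of Cxcl9-positive cells against 71.7%. Within macrophages alone the contrast was narrower, at 59.7% of 77 Cxcl9-positive cells against 21.1% for Gbp2 and 35.1% against 17.1% for Cxcl10. The type I gene Rsad2 was read in 32.3% against 12.9% over the class but in 29.9% against 31.4% within macrophages.

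Genes that handle these chemokines or share their target cells were compared in lymphoid cells. Ccl5, a chemokine of cytotoxic lymphocytes, read 700 and 965 CPM in the lymphoid cells of the Control libraries and 250 and 559 in those of the hucMSC-Exo libraries. The groups did not overlap, as for 22.6% of the genes tested there in that direction (log2 difference -0.96, SE 0.41, adjusted p = 0.998). Adam10 and Adam17, the proteases known to shed Cxcl16, read 40.7, 48.4, 39.9 and 42.3 CPM and 31.2, 48.2, 33.6 and 41.8 CPM. Their log2 differences were -0.03 (SE 0.21) and -0.01 (SE 0.29). Lymphoid cells held only 1.28% of the Cxcl16 UMIs, so these values do not describe shedding by the cells that made it. Of 9 listed genes 5 were tested, 4 below 0 and 1 above, with a median of -0.03 and 0 called.

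Across 17 populations the 6 genes formed no single pattern. The highest correlation of log2(CPM + 1) between a pair of them was 0.87 for Ifng with Cxcr3, and Cxcl9 with Cxcl10 gave 0.58, while Cxcl16 with Cxcr6 gave -0.42. The genes most like Ifng among those with at least 100 UMIs were Gm2682 (r = 0.96), Fasl (0.95) and Gm33104 (0.94), those most like Cxcl9 were Lyz1 (0.90), Cd163 (0.90) and Clec4b1 (0.88), and those most like Cxcl16 were Cd40 (0.93), Pgf (0.92) and Nrg1 (0.92). For Cxcr3 they were Gm2682 (0.89), Sh2d1a (0.88) and Ifng (0.87), for Cxcr6 Nebl (0.97), Zdhhc2 (0.96) and Grap (0.95), and for Cxcl10, whose likenesses were lowest, Nt5c3 (0.78), Acta1 (0.76) and Usf1 (0.75). The points are populations of the same 4 libraries and differ in depth, so the values are a description.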

How the data were processed

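Single-cell RNA-seq libraries (10x Genomics 3' chemistry) from periwound skin were analysed, 2 titled Control and 2 titled hucMSC-Exo. The deposited values are UMI counts per gene and cell barcode, made by the authors with Cell Ranger 6.1.2 and the mm10 genome according to the submitters' processing notes. Counting at transcript 3' ends means that levels are UMIs per 1e6 UMIs (CPM) and are not compared between genes.

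Cells were kept at 200 to 3000 genes with no more than 10% of UMIs from mitochondrial genes, the limit of 3000 genes leaving out 69 to 281 cells a library. Cells were clustered with scanpy 1.11.5 and leidenalg 0.10.2 (2000 variable genes without the 6 genes and the listed genes, 30 principal components, 15 neighbours, resolution 1) and named from marker lists. The study's rank test over cells was not used, since cells of 1 library are not replicates. UMIs were summed per library and population and tested with edgeR 4.0.16 (R 4.3.3, TMM, filterByExpr, quasi-likelihood, Benjamini-Hochberg over all genes tested, threshold 0.05), where each library had at least 10 cells. DESeq2 1.42.0 was an alternative, as were other normalization, no filter on low counts, a replicate block, each library left out, all deposited cells, other clustering and thinning to 1000 UMIs. By the study's text each library is 1 mouse, so with 2 libraries a group p-values measure the spread between 2 mice, technical differences included. Shares of cells carry exact 95% Clopper-Pearson intervals and, where 0, the limit that 3 counts allow, both for counting error only. The study removed doublets with DoubletFinder, and the sources used here do not say whether before deposit. Scrublet called 0.466% of the kept cells, under the 0.5% below which its calls were not used, so no cell was removed and the 10% of cells with the highest scores were left out as an alternative. edgeR was run on simulated counts for lymphoid cells (10396 genes) and for monocytes, macrophages and dendritic cells (9463 genes). It recovered 100% of 200 genes changed by 3 on the log2 scale, and 0% and 4.76% of its calls were false in turn. Only well-read genes were changed, with 1 spread set for all genes. The recovery therefore does not carry over to sparse genes or to genes that vary widely between libraries, such as Cxcl9.

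The 6 genes, the 5 gene lists and the marker lists were chosen with earlier results of these data known. Genes named from a list are the 4 with the highest summed CPM in the class where the list is described, with the 3 genes most like each of the 6 in profile and up to 5 called genes a class. Tbx21, Eomes, Gbp2 and Irf1 were named after their values were seen. Some listed genes are not reported here by name. Promoter sequences are from RefSeq (GRCm38.p6), found for 5 of the 6 genes, and gene positions from GENCODE.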

Additional observations from a re-analysis of the deposited data

Results flagged for a closer look

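Cxcl10 differed in opposite directions in 2 populations of the same libraries. In dendritic epidermal T cells the log2 difference was 3.85, with both hucMSC-Exo libraries above both Control libraries, and in macrophages it was -0.98, with both hucMSC-Exo libraries below both Control libraries. The difference between the 2 populations was not tested. In both, single cells held much of the RNA: 58 of 78 and 25 of 40 UMIs in the dendritic epidermal T cells of hucMSC-Exo 1 and 2, and 46 of 48 UMIs in the macrophages of hucMSC-Exo 1.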

How the results depend on the processing

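Of 295 recomputed log2 differences over 24 gene and population pairs, 274 kept their direction and side of the threshold, 7 changed direction, 12 passed the threshold and 2 missed it. All 7 reversals came from leaving out 1 library. With each library left out, Cxcl9 ranged from -5.04 to +0.50 in all kept cells, -4.19 to +1.65 in macrophages and -5.24 to +0.83 in monocytes, macrophages and dendritic cells, and Cxcl10 from -1.17 to +0.36 in all kept cells, each highest without Control 1. Cxcl16 in all kept cells ranged from -0.71 to +0.0646 (without Control 2), Ifng in NK cells from -0.72 (without hucMSC-Exo 2) to +0.50 and in CD8 or NKT-like T cells from -0.50 (without hucMSC-Exo 1) to +2.28. Of 140 shares 136 kept their direction: without Control 1 the difference was +1.51 percentage points for Cxcl10 in monocytes, macrophages and dendritic cells, +4.02 for Cxcl9 in macrophages (-24.2 without Control 2) and +2.14 for Cxcl10 in neutrophils (-3.90 without Control 2), and in thinned neutrophils it was +0.717.

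Of 110 mean levels 107 moved by less than 1 SD, the others being Cxcl10 in macrophages with all deposited cells (109 CPM) and Cxcl16 in monocytes with all deposited cells (242) and at resolution 0.6 (106).

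The number of genes called depended on the settings. Without a filter on low counts edgeR called 78 genes in lymphoid cells, 39 in monocytes, macrophages and dendritic cells, 1 in neutrophils and 198 over the single populations, among them Cxcl9 (adjusted p = 4.15e-24) and Cxcl10 (2.48e-05) in the class, Cxcl9 in macrophages (1.01e-11) and Ifng in CD4 T cells (1.68e-05). With the filter and without Control 1, the log2 differences of these 4 were +0.83, -0.41, +1.65 and -0.29 in turn. Against 3 calls over the single populations, DESeq2 gave 5, leaving out the top doublet scores 0 and resolution 0.6 gave 1. With each library left out, calls ranged from 0 to 2 in all kept cells, 0 to 207 in lymphoid cells, 0 to 26 in monocytes, macrophages and dendritic cells, 0 to 5 in neutrophils and 100 to 682 over the single populations; these fits assume that a lone library varies like the others. The cause of these changes was not tested. Differences in share ranged from -4.12 to -2.58 points for Ifng, -4.53 to -2.29 for Cxcr3, 4.84 to 18.1 for Cxcr6, -23.5 to -0.846 for Cxcl9, -13.6 to 1.51 for Cxcl10 and -15.5 to -2.83 for Cxcl16.

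The libraries share replicate numbers but no labelled pairing. Deviations of equally numbered libraries correlated at 0.186 in all kept cells, 0.171 in lymphoid cells, -0.212 in monocytes, macrophages and dendritic cells and -0.0347 in neutrophils. With the replicate block 0 genes were called in these 4 classes and 13 over the single populations. A crossed block, added after seeing the data, called 0 in monocytes, macrophages and dendritic cells, and the settings without the highest cell were added likewise.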

Other observations

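Cells with more than 3000 genes, left out above, also held these RNAs. In Control 1 the 106 such cells held 21.3% of all deposited Cxcl9 UMIs.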
